A study of Gallus gallus with 10 samples.

Results

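Circadian clock genes were followed in the white isthmus of dwarf white hens, the oviduct segment in which the fibres of the eggshell membrane are laid down. The members were the rows of the deposited expression table whose gene symbol was ARNTL, CLOCK, NPAS2, PER2, PER3, CRY1, CRY2, NR1D2 or RORA, that is 9 of 17617 rows. The rows were taken by symbol, and the symbols were chosen with earlier results of these data known. All 9 matched a chicken gene in RefSeq by NCBI gene number, and all 9 passed the low-count filter that left 12858 genes for testing. The study compared 5 wild-type hens that laid translucent eggs (Translucent-1 to Translucent-5) with 5 wild-type hens that laid opaque eggs (Opaque-1 to Opaque-5), with 1 RNA-seq library per hen and no treatment. Hens of both groups were old layers of 1 selected line, had been graded repeatedly for shell translucency, and were sampled at a fixed delay after oviposition with the egg in the white isthmus. Per the study's methods the hens were selected on their membranes, thinner in the translucent and normal in the opaque group, and were not drawn at random. The clock hour at which each hen was sampled is not given in the sources used here, so a difference in the hour and a difference between hens cannot be told apart.

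The circadian clock of birds and mammals is a feedback loop of transcription factors that runs in most cells. ARNTL (also called BMAL1) pairs with CLOCK or with its relative NPAS2, and the pair switches on the PER and CRY genes, whose proteins gather and shut the pair off, so that the mRNAs of the activators and of several targets peak at opposite phases. A second loop acts on ARNTL itself, where the nuclear receptors of the NR1D family (REV-ERB) repress it and RORA activates it. In hens the clock is known for its part in timing ovulation, and the length of the ovulatory cycle sets the interval between eggs.

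Reads on genes totalled between 11601225 and 19014779 per hen, with medians of 16389842 in the translucent and 11742126 in the opaque group. Levels between hens are given in CPM, the reads of a gene scaled to library size and by the trimmed mean of M values (TMM). A floor of 3 reads, under which a level was not read, came to between 0.158 and 0.259 CPM by library size alone. All 9 clock genes were above it in all 10 hens. Isthmus gland cell markers, COL10A1 among them, summed to between 63253 and 81537 CPM in all hens, so the defining genes of the labelled tissue were present. The libraries of Translucent-1 and Opaque-5, 1 from each shell class, stood apart on the first principal component, which held 39.8% of the variance. Their scores were 54.7 and 78.3, and the other 8 hens lay between -36.4 and 11.9. Egg-white protein genes typical of the magnum, the oviduct segment above the isthmus, were summed over 5 of the 6 listed, since OVAL was not found. The sum was 160696 CPM in Translucent-1 and 120809 CPM in Opaque-5, beside 60276 to 83981 CPM in the other 8 hens. TMM scaling gave these 2 libraries the smallest factors, 0.855 and 0.869, against 0.986 to 1.09 in the others. The tests of the 9 clock genes are therefore given with and without them, and their part in the results was not tested beyond that. In bulk tissue, fewer cells of a type and less RNA per cell cannot be told apart.

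The levels of the clock genes per transcript length, in FPKM as the authors computed it, spanned a wide range. CRY2 was the most abundant at 99.8 ± 22.3 FPKM (mean ± SD, n = 10 hens), at rank 703 of the 17617 rows, and CRY1 followed at 60.7 ± 9.57 FPKM. Both are repressors of the loop. ARNTL at 13.97 ± 1.14 FPKM, PER2 at 12.5 ± 3.52, NR1D2 at 12.2 ± 3.43 and CLOCK at 11.2 ± 5.12 formed a middle tier. NPAS2 at 2.94 ± 2.03, PER3 at 1.95 ± 0.421 and RORA at 1.93 ± 1.18 FPKM were the lowest, with PER3 and RORA at ranks 10644 and 10667. Between neighbours in this order, only the ranges of CRY1 and ARNTL did not overlap, and CRY1 was the higher in 10 of 10 hens. CRY2 exceeded CRY1 in 9 of 10 hens, and the exception was Translucent-1. Within the middle tier and within the lowest tier neighbours exchanged places from hen to hen, the upper gene being the higher in 5 to 7 of 10 hens. CLOCK exceeded NPAS2 in 8 of 10 hens, and the 2 in which the order turned were Translucent-1 and Opaque-5.

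**Figure D1:**
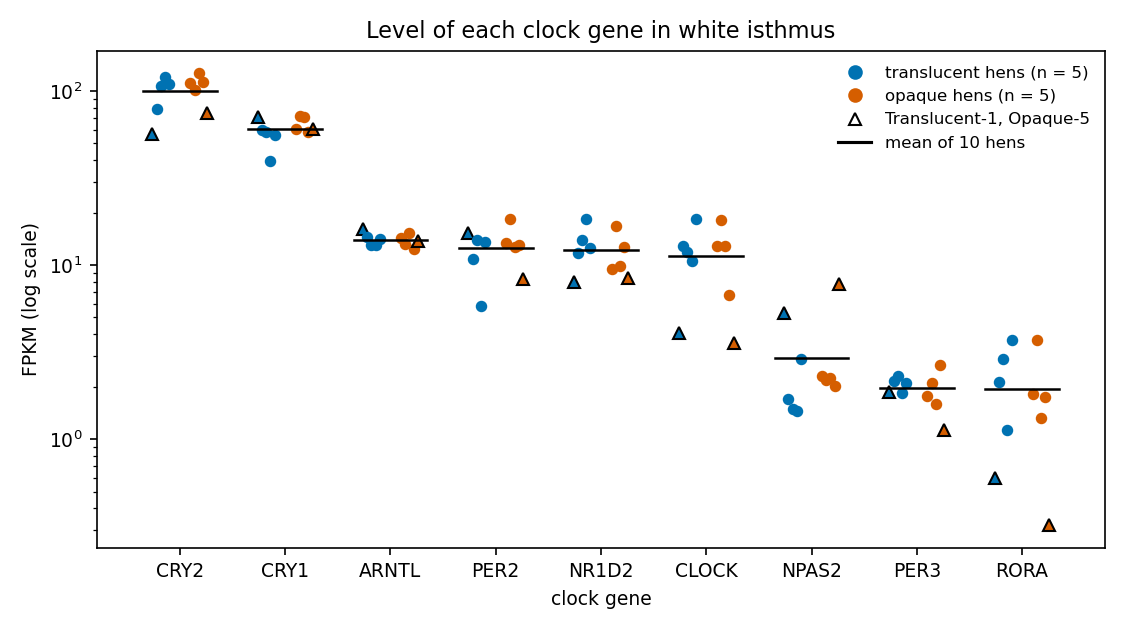
Level of each of the 9 clock genes in FPKM on a log axis, with 1 point per hen, translucent hens in blue and opaque hens in orange, black-edged triangles for Translucent-1 and Opaque-5, and a line at the mean of 10 hens. CRY2 and CRY1 lie highest at means of 99.8 and 60.7 FPKM, and the triangles leave the other points most clearly in CLOCK, NPAS2 and RORA.

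Among the activators, ARNTL was the steadiest member across hens. Its level in TMM-scaled CPM was 42.1, 31.9, 28.5, 27.9 and 29.6 in the translucent hens, in the order of their numbers, and 29.6, 28.7, 31.9, 28.1 and 35.4 in the opaque hens. The highest hen was 1.51 times the lowest, and the standard deviation of its log2 CPM, 0.19, was at percentile 15.1 of all tested genes. Translucent-1 and Opaque-5 were the 2 highest and the 8 other hens lay within a factor of 1.14, with the shell classes overlapping. The place of Opaque-5 rested on the scaling, since in FPKM it had 13.7, inside the range of 12.4 to 15.2 of the other 8 hens, while Translucent-1 remained highest at 16.1.

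CLOCK, the usual DNA-binding partner of ARNTL, varied more. It was at 13.5, 35.2, 33.2, 28.1 and 47.9 CPM in the translucent hens and at 33.4, 49.3, 33.4, 19.5 and 11.97 CPM in the opaque hens. Its highest hen was 4.12 times its lowest and its spread was at percentile 86.0 of the tested genes. Translucent-1 and Opaque-5 were the 2 lowest hens, below all others, while Opaque-2 and Translucent-5 were the highest, so that each shell class held a hen at either end.

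NPAS2, the CLOCK relative that can stand in for it in mammals, ran the other way in the same 2 hens. NPAS2 was at 23.3, 6.29, 5.42, 5.24 and 9.51 CPM in the translucent and at 7.94, 7.98, 7.85, 7.70 and 33.4 CPM in the opaque hens. The spread, at percentile 92.3 of all genes, came mostly from Translucent-1 with 378 reads and Opaque-5 with 338 reads, beside 84 to 167 reads in the other hens. Without these 2 the highest and lowest hens differed by 1.82 times, against 6.38 times with them. The ratio of NPAS2 reads to CLOCK reads, which no scaling of libraries alters, was 1.73 in Translucent-1 and 2.79 in Opaque-5 and between 0.162 and 0.395 in the other 8 hens. The 2 partner genes of ARNTL thus stood in another proportion in 1 hen of each shell class.

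Of the repressors, PER2, a light-responsive component of the inhibitory complex, was at 104, 62.5, 80.1, 32.8 and 73.5 CPM in the translucent hens and at 71.6, 105, 69.6, 77.0 and 56.2 CPM in the opaque hens. Translucent-4 had less PER2 than any other hen, and 1 hen of each class, Opaque-2 and Translucent-1, shared the top. PER3, a period gene with a lesser part in the mammalian loop, stayed between 11.1 and 14.3 CPM (median 13.5) in the translucent hens and between 8.21 and 17.2 CPM (median 10.3) in the opaque hens. The 2 opaque extremes of PER3, Opaque-5 and Opaque-4, enclosed all translucent hens.

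CRY1 and CRY2, the cryptochromes that do most of the repression, differed in which hens were high. CRY1 was at 192, 132, 129, 85.5 and 115 CPM in the translucent and at 127, 157, 150, 137 and 169 CPM in the opaque hens. CRY2 was at 129, 151, 203, 224 and 198 CPM in the translucent and at 197, 190, 230, 221 and 166 CPM in the opaque hens. Translucent-1 had the most CRY1 and the least CRY2, and Translucent-4 had the least CRY1 and nearly the most CRY2. The ratio of CRY1 reads to CRY2 reads accordingly ran from 0.381 in Translucent-4 to 1.49 in Translucent-1, a 3.91-fold span, with Opaque-5 next at 1.02 and a median of 0.649. In the ratio as well the classes overlapped, with means of 0.792 ± 0.427 and 0.752 ± 0.171 (SD, n = 5 each, two-sided exact permutation test p = 0.865, and p = 0.457 without Translucent-1 and Opaque-5).

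In the stabilising loop, NR1D2 (REV-ERB beta), a repressor of ARNTL, was at 24.4, 27.5, 34.8, 45.9 and 30.5 CPM in the translucent hens and at 22.7, 39.9, 24.1, 33.6 and 25.42 CPM in the opaque hens. Translucent-4, lowest in ARNTL, NPAS2, PER2 and CRY1, was highest in NR1D2, and its ratio of PER2 to NR1D2 reads was 0.714 against 2.21 to 4.26 in the other 9 hens. Its place in ARNTL was narrow, at 27.9 CPM beside 28.1 in Opaque-4, and in FPKM Opaque-4 was the lower at 12.4 against 13. RORA, an activator of ARNTL, was at 2.09, 6.29, 7.87, 3.24 and 10.3 CPM in the translucent hens and at 4.58, 10.1, 3.69, 4.81 and 1.09 CPM in the opaque hens. Its spread was the widest of the 9, at percentile 94.8 of the tested genes, with Opaque-5 and Translucent-1 the 2 lowest hens. The level in Opaque-5 rested on 11 reads, for which the exact 95% Poisson interval is 5.49 to 19.7 reads and covers counting error only.

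**Figure D2:**
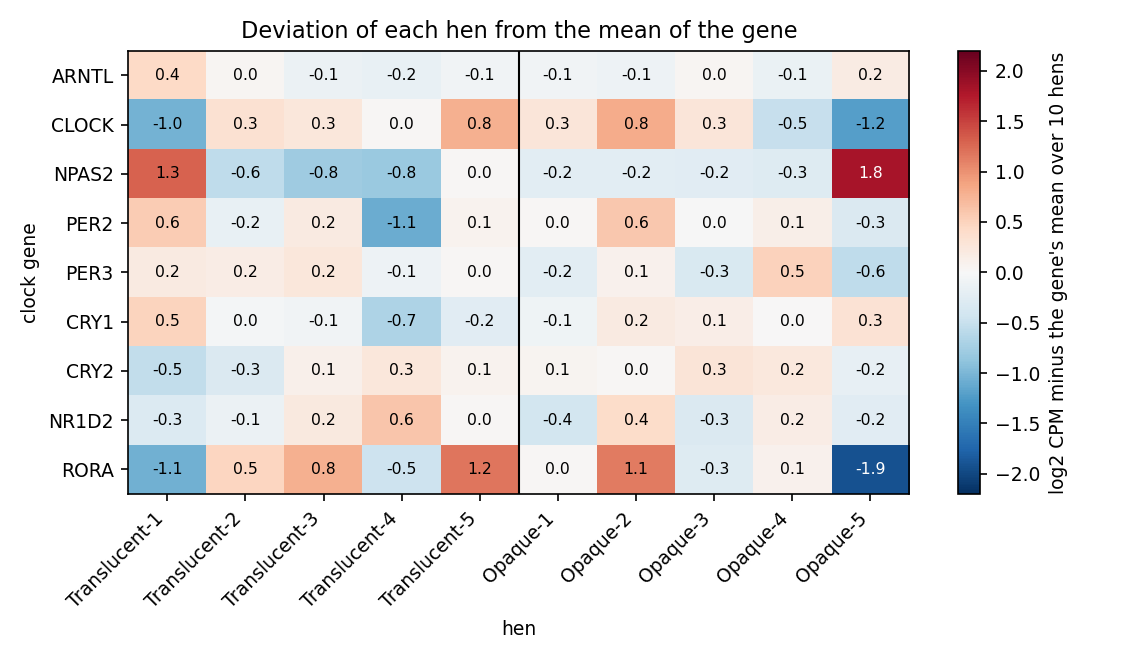
Deviation of log2 CPM from the mean of each gene over 10 hens, for the 9 clock genes (rows) in the 10 hens (columns, shell classes divided by the line), on a colour scale from blue (below the mean) to red (above). Translucent-1 and Opaque-5 are low in CLOCK and RORA and high in NPAS2, and Translucent-4 is low in PER2 and CRY1 and high in NR1D2.

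In Translucent-1 and Opaque-5 together, 3 of the 9 clock genes (ARNTL, NPAS2 and CRY1) were above all other 8 hens and 2 (CLOCK and RORA) were below all of them. Among all 12858 tested genes, 20.6% lay above and 20% below in the same sense, so on this scale many other genes lay apart in the same 2 hens. The scale is TMM-scaled CPM, and in FPKM the place of CRY1 and of ARNTL was not kept. CRY1 was then at 70.7 FPKM in Translucent-1 and 60.7 in Opaque-5, both under Opaque-2 at 71.9. The hens had been set apart on all genes, and no test is given. Among the stress-response genes examined, FOS, an immediate early gene, was at 7.75 and 9.49 CPM in these 2 hens and at 222 to 404 CPM in the others. DUSP1, a phosphatase that is induced quickly by stress and glucocorticoids, was at 37.6 and 28.1 against 267 to 473 CPM. HSPA5, the chaperone of the endoplasmic reticulum, was at 1565 and 1575 against 373 to 813 CPM. Of the 4 immediate early genes tested 3 lay below all other hens in both libraries (FOS, JUN and EGR1, not ATF3), as did 3 of 5 glucocorticoid-response genes (DUSP1, SGK1 and NR3C1, not FKBP5 or KLF9). Of the 6 genes listed as chaperones or temperature-responsive, 4 lay above (HSPA5, HSPA8, HSPH1 and HSP90AA1, not RBM3 or DNAJB1). A response to temperature was not tested. These genes moved with the NPAS2, CLOCK and RORA values of these 2 hens, and their part in those values was not tested. Shell gland markers summed to 798 CPM in Translucent-1 and 874 CPM in Opaque-5 beside 263 to 642 CPM in the other 8 hens. Of the 7 listed 5 were found, and only 2 of them passed the low-count filter. Smooth muscle markers summed to 1112 CPM in Translucent-1 and 495 CPM in Opaque-5 beside 351 to 743 CPM in the others. Epithelial markers, 3 of 5 found, summed to 2811 and 3138 beside 1386 to 2413 CPM. Red blood cell markers, 5 of 6 found, summed to 75.1 and 93.5 beside 94.1 to 204 CPM, with HBE at 0 in all hens. Fibroblast, leukocyte, endothelial and ciliated cell markers did not lie on 1 side of the other hens in both libraries.

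Shell class was compared first, to see whether the clock genes differed between hens laying translucent and opaque eggs. None of the 9 passed the test, and the hens of the classes overlapped in all 9 genes. The largest fitted differences were in NPAS2, at -0.38 ± 0.55 (log2 fold change of translucent over opaque ± SE), and in RORA, at 0.29 ± 0.53. The smallest standard errors belonged to ARNTL, at 0.06 ± 0.14, and CRY2, at -0.15 ± 0.16, while CLOCK stood at 0.10 ± 0.38, CRY1 at -0.18 ± 0.19, PER2 at -0.11 ± 0.26, PER3 at 0.16 ± 0.21 and NR1D2 at 0.16 ± 0.21. By edgeR's quasi-likelihood test, 0 of 9 had an unadjusted p-value under 0.05, and each Benjamini-Hochberg adjusted p-value was 0.9999. Across all tested genes 0 (0%) were called at an adjusted p-value under 0.05 with a change above 1 on the log2 scale, and 282 (2.19%) had an unadjusted p-value under 0.05, while DESeq2, run without the low-count filter, called 4 genes, none of them a clock gene. Exact permutation tests over all allocations of hens to the classes, each two-sided, gave p-values between 0.317 and 0.778 for the 9 genes, and between 0.0857 and 0.829 without Translucent-1 and Opaque-5. The median log2 fold change of the members was 0.06, beside -0.01 for all tested genes. Without Translucent-1 and Opaque-5 the widest gaps were -0.37 ± 0.25 for PER2 and -0.30 ± 0.14 for CRY1, and again 0 of 9 had an unadjusted p-value under 0.05.

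**Figure D3:**
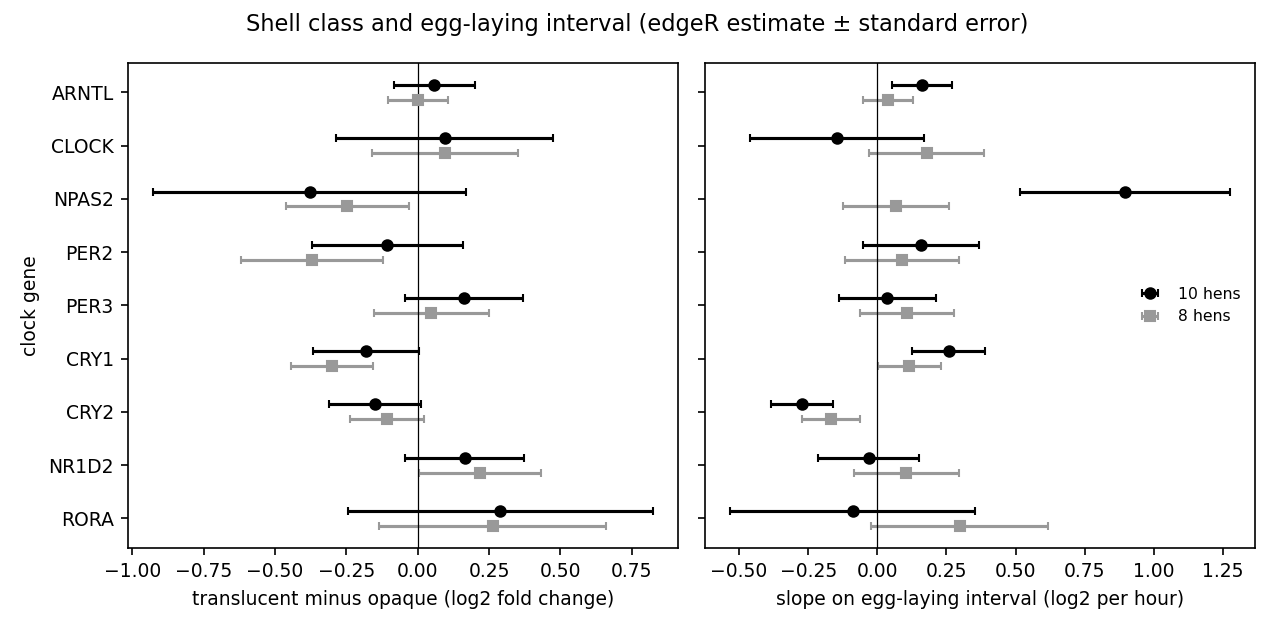
Fitted difference between shell classes (left, log2 fold change of translucent over opaque) and slope on the egg-laying interval (right, log2 units per hour) of each clock gene by edgeR, with bars of 1 standard error, for all 10 hens (black circles) and for 8 hens without Translucent-1 and Opaque-5 (grey squares). NPAS2 has the steepest slope, 0.89 per hour with 10 hens and 0.07 with 8, and CRY2 is negative in both.

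The mean egg-laying interval of each hen, recorded by the authors over the days before sampling, was then fitted as a continuous term beside shell class. CRY2 was lower in hens with longer intervals, with a slope of -0.27 ± 0.11 log2 units per hour (edgeR, unadjusted p = 0.0352, Benjamini-Hochberg adjusted p = 0.965). NPAS2 was higher, with a slope of 0.89 ± 0.38 per hour (edgeR, unadjusted p = 0.0389, adjusted p = 0.965). These were the only 2 of the 9 with an unadjusted p-value under 0.05, beside 2.56% (329) of all tested genes, and 0 (0%) were called after adjustment by edgeR against 4 by DESeq2, none of them a clock gene. CRY1 had a slope of 0.26 ± 0.13 and ARNTL of 0.16 ± 0.11, and the other 5 genes had slopes between -0.15 and 0.16. The median slope of the members was 0.04 and that of all genes 0.01.

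Without Translucent-1 and Opaque-5 the 2 slopes differed in how much they kept. The slope of NPAS2 fell to 0.07 ± 0.19 (edgeR, unadjusted p = 0.737), while that of CRY2 was -0.17 ± 0.10 (unadjusted p = 0.141). As a simple correlation over 10 hens, CRY2 and the interval gave Pearson's r = -0.73 (permutation p = 0.0163) and Spearman's rho = -0.71 (permutation p = 0.0273), 1 of 9 such relations computed and the only one of them with p under 0.05. Leaving out the 2 hens farthest from the median interval, Translucent-2 and Opaque-1, gave r = -0.83 (exact permutation p = 0.00923, n = 8), leaving out Translucent-1 and Opaque-5 gave r = -0.64 (exact permutation p = 0.0913, n = 8), and centring each shell class on its mean gave r = -0.69 (exact permutation p = 0.0537 within classes, n = 10). The remaining 8 genes had r between -0.22 and 0.54, with permutation p-value of 0.106 or more. The sign of CRY2 thus stayed negative in each of these settings, and it did not pass the adjustment over all genes.

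Covariation among the clock genes was read from all 36 pairs over 10 hens. In 11 pairs the permutation p-value of Pearson's r was under 0.05, of which 5 were positive and 6 negative, and by Spearman's rho there were 4. The share of all gene pairings meeting this permutation criterion was not computed, so no excess is read from such counts. An absolute r of at least 0.7 was reached by 8 of 36 pairs, beside 14.7% of all pairings of a clock gene with a tested gene. Over the 8 hens without Translucent-1 and Opaque-5 it was reached by 2 of 36 pairs, beside 7.35% of all pairings. The sign was kept in 25 of 36 pairs. A permutation p-value under 0.05 was found both with 10 and with 8 hens in 2 pairs, ARNTL with NR1D2 and PER2 with CRY1. Over the 8 hens the standard deviation of log2 CPM of ARNTL was only 0.08, on 321 to 555 reads. Counting error was not separated from that spread, which limits what the 8-hen values of pairs with ARNTL can show.

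CLOCK and RORA formed the closest pair, with r = 0.89 (permutation p = 4e-04) and rho = 0.81 (permutation p = 0.00666), and both genes were lowest in Opaque-5 and Translucent-1 and highest in Opaque-2 and Translucent-5. Over the other 8 hens, the same 8 that remain after dropping the 2 farthest in CLOCK, r was 0.69 (exact permutation p = 0.0549). On the first principal component Opaque-5 and Translucent-1 scored 78.3 and 54.7, and Opaque-2 and Translucent-5 scored lowest at -36.4 and -36.1. An absolute r of at least 0.7 was reached with CLOCK by 41.1% of tested genes and with RORA by 34.8%. A link of this pair apart from that component was not tested. ARNTL and NR1D2, an activator and its repressor, moved in opposite directions with r = -0.63 (permutation p = 0.0461) and rho = -0.76 (permutation p = 0.0153), and here the 8 hens gave r = -0.74 (exact permutation p = 0.0391). These p-values were not adjusted over the 36 pairs, and ARNTL spanned a factor of only 1.14 over the 8 hens. The ratio of ARNTL to NR1D2 reads ran from 0.608 in Translucent-4 to 1.73 in Translucent-1. PER2 and CRY1, both repressors, varied together with r = 0.73 (permutation p = 0.0250) and r = 0.88 without Translucent-1 and Opaque-5 (exact permutation p = 0.0185). The pair of PER2 and CRY1 rested on its extremes, since rho was 0.37 (permutation p = 0.295) and r dropped to 0.27 (exact permutation p = 0.512) without Translucent-4 and Opaque-2, the 2 hens farthest in PER2.

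**Figure D4:**
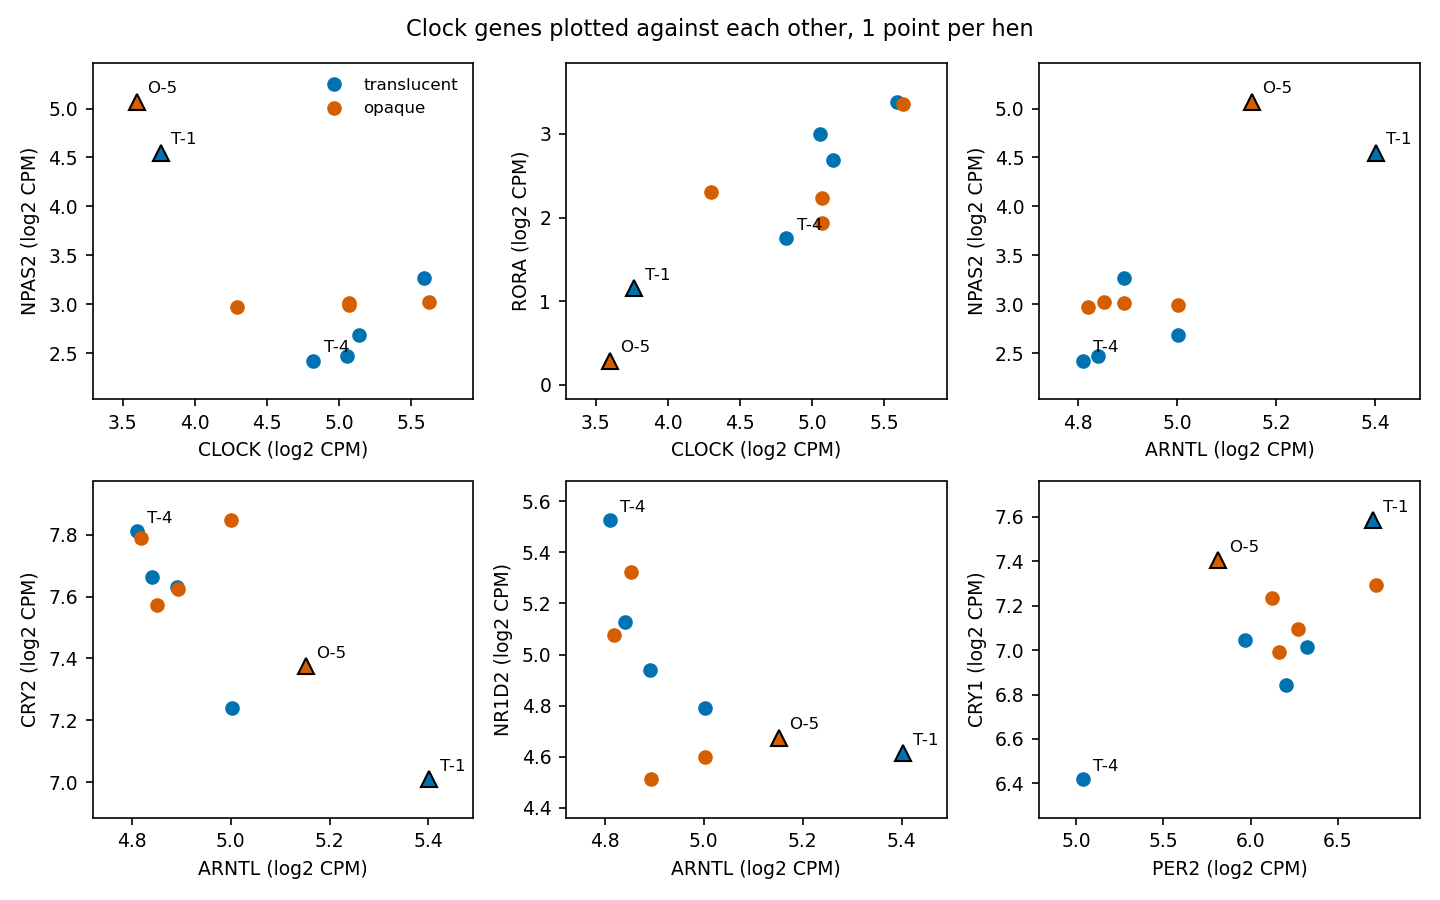
Log2 CPM of 6 pairs of clock genes, with 1 point per hen, translucent hens in blue, opaque hens in orange and black-edged triangles for Translucent-1 and Opaque-5. CLOCK and RORA rise together over all hens (r = 0.89), with r = 0.69 when the triangles are left out (exact permutation p = 0.0549). NPAS2 is high in the triangles alone, and ARNTL and NR1D2 fall against each other over all hens (r = -0.63).

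The pairs of ARNTL with its partners, with CRY1 and with RORA depended on the 2 hens set apart. ARNTL with NPAS2 had r = 0.81 (permutation p = 0.0141, rho 0.67 with permutation p = 0.0384) over 10 hens and r = 0.23 over 8 (exact permutation p = 0.575). For ARNTL with CLOCK r was -0.67 (permutation p = 0.0310, rho -0.18 with permutation p = 0.632) and changed sign to 0.28 over 8 hens, and for CLOCK with NPAS2 it went from -0.75 (permutation p = 0.0191, rho -0.14 with permutation p = 0.707) to 0.36. ARNTL with CRY1 had r = 0.73 (permutation p = 0.0231, rho 0.64 with permutation p = 0.0544) and 0.41 over 8 hens (exact permutation p = 0.324). ARNTL with RORA, its activator in the second loop, was negative at r = -0.65 (permutation p = 0.0401, rho -0.42 with permutation p = 0.233), and at -0.08 over 8 hens (exact permutation p = 0.843). In NPAS2 with RORA the change was from -0.72 (permutation p = 0.0196, rho -0.21 with permutation p = 0.559) to 0.35. In these 6 pairs Translucent-1 and Opaque-5 are also the 2 hens farthest from the median of the gene named first. Over the 8 hens ARNTL spanned a factor of only 1.14, so a shared rise of another gene with it could hardly show there. Nothing is concluded from its absence. For CLOCK with NPAS2 the r of 0.36 over the 8 hens had an exact permutation p of 0.377. The 2 hens with more NPAS2 than CLOCK reads are those left out there. The 8 hens therefore cannot show whether NPAS2 is exchanged for CLOCK.

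Opposite phases were examined in the 12 pairs of an activator (ARNTL, CLOCK or NPAS2) with PER2, PER3, CRY2 or NR1D2. CRY1 and RORA were left out of the 12, on the ground that CRY1 mRNA peaks late and RORA mRNA cycles little. Over 10 hens 6 of these 12 were negative and over 8 hens 8 of 12, while among the other 24 pairs 12 and 7 were negative. The 24 held the pairs of CRY1 with the activators, at r = 0.73 with ARNTL, 0.71 with NPAS2 and -0.47 with CLOCK over 10 hens. Among all 36 pairs 11 had a permutation p-value under 0.05 over 10 hens, and among the 12 there were 2, both with ARNTL. Besides NR1D2 this was CRY2, with r = -0.82 (permutation p = 0.00623) and rho = -0.70 (permutation p = 0.0309), and r = -0.44 over 8 hens (exact permutation p = 0.269). CLOCK, by contrast, was positive with CRY2 and NR1D2 over 10 hens at r = 0.45 (permutation p = 0.193) and 0.33 (permutation p = 0.347), and at -0.41 and -0.05 over 8 hens. Over 10 hens opposite movement was thus seen for ARNTL against 2 of its 4 counterparts in the 12 pairs, and not as a rule for the activators. Over 8 hens, where ARNTL spanned a factor of only 1.14, only NR1D2 kept a permutation p-value under 0.05. There the r of ARNTL with CRY2 was close to that with PER3, at -0.43 (exact permutation p = 0.289).

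**Figure D5:**
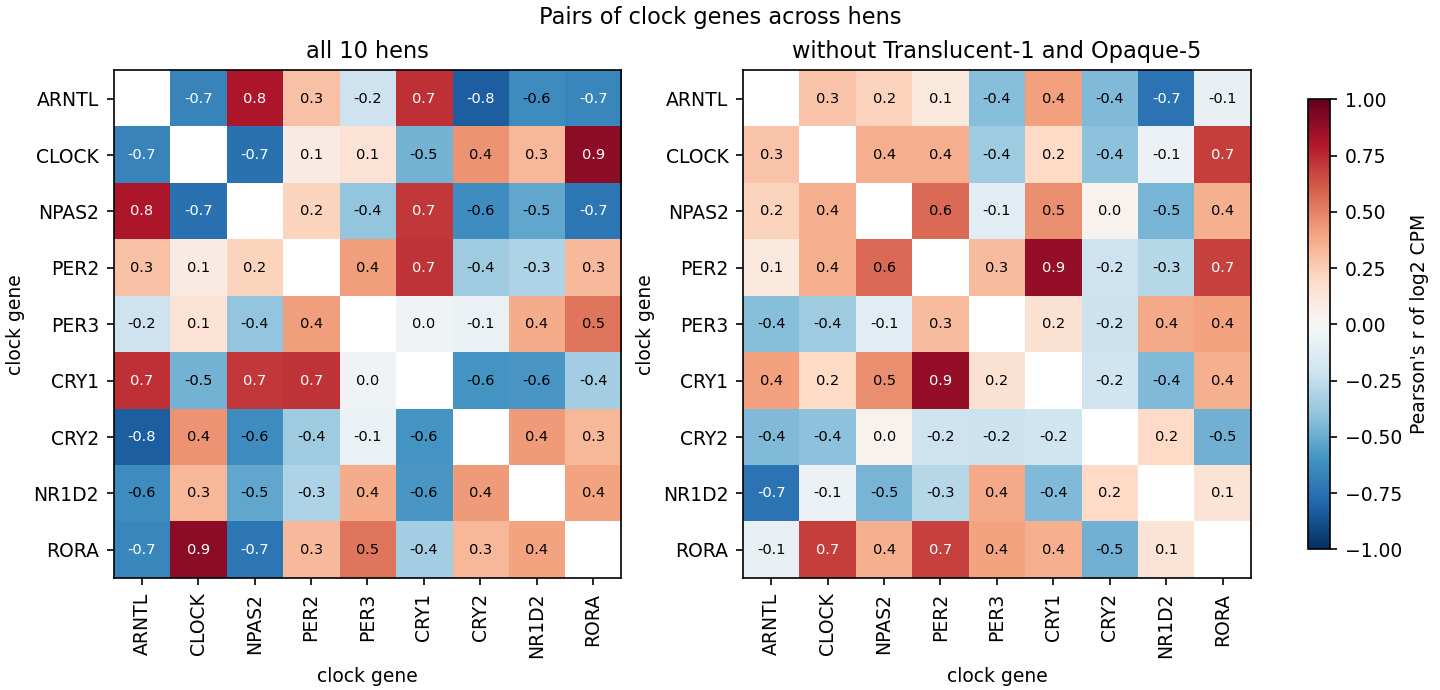
Pearson's r of log2 CPM for the 36 pairs of clock genes over all 10 hens (left) and over 8 hens without Translucent-1 and Opaque-5 (right), blue for negative and red for positive. The sign was kept in 25 of 36 pairs, and CLOCK with NPAS2 turns from -0.75 to 0.36.

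The scaling of libraries bore on the pairs with ARNTL, whose range is narrow. With library size alone, r was 0.45 for ARNTL with NPAS2 (permutation p = 0.197), -0.52 with CRY2 (permutation p = 0.123), 0.48 with CRY1 (permutation p = 0.162) and -0.18 with CLOCK (permutation p = 0.616), and on log2(FPKM + 1) the values were close to these. ARNTL with NR1D2, CLOCK with RORA, CLOCK with NPAS2, NPAS2 with RORA and PER2 with CRY1 kept a permutation p-value under 0.05 under each of these scalings.

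ARNTL was also used as a reference for all genes, in a limma model of log2 CPM with shell class. Per log2 unit of ARNTL, NPAS2 was higher by 3.98 ± 0.80 log2 units and CRY1 by 1.36 ± 0.34, and RORA, CLOCK, NR1D2 and CRY2 had slopes of -3.63 ± 1.22, -2.61 ± 0.87, -1.22 ± 0.47 and -1.15 ± 0.31. These 6 of 8 had an unadjusted p-value under 0.05 by limma, and PER2, at 0.82 ± 0.76, and PER3, at -0.43 ± 0.57, did not. The same criterion was met by 3942 of all genes (30.7%) with TMM scaling, but by 300 with library size alone and by 273 on log2(FPKM + 1), so that this share rests on the scaling. After Benjamini-Hochberg adjustment limma called 0 genes (0%), with the smallest adjusted p-value at 0.0715. DESeq2, run without the low-count filter, called 2066 of the 16272 genes it fitted. NPAS2, RORA, CLOCK, CRY1 and CRY2 were among the 2066, at DESeq2 adjusted p-values of 0.000842 to 0.0192. Without Opaque-3 or Translucent-4 limma called 86 and 450 genes. Without Translucent-1 and Opaque-5 the share fell to 2.65% (343 genes), 0% were called after adjustment, and NR1D2 was the 1 clock gene of 8 that met the unadjusted criterion. Its slope was then -2.91 ± 1.05 (limma across all genes, Benjamini-Hochberg adjusted p = 0.9996). Over these 8 hens ARNTL spanned a factor of only 1.14, from which counting error was not separated, so nothing is concluded from that slope.

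CLOCK was the member with the most company in the transcriptome. An absolute r of at least 0.7 over 10 hens was shared with CLOCK by 41.1% of the tested genes, with RORA by 34.8%, with NPAS2 by 27.4% and with ARNTL by 17.0%. For CRY2, CRY1, PER3, PER2 and NR1D2 the share was between 0.972% and 4.64%. Over 8 hens the order changed below the first 2, with 21.1% for CLOCK, 11.2% for RORA, 8.99% for PER3, 5.69% for PER2, 5.63% for NPAS2, 4.32% for CRY1, 3.79% for CRY2, 3.11% for ARNTL and 2.34% for NR1D2. The genes most like ARNTL over 10 hens were PAK1, a kinase activated by small GTPases (r = 0.96 and 0.60 over 8 hens), then PPP4R1, UBXN10, MSX2, AIDA, YARS, NDUFB3, CCDC174, EFCAB10 and NCL. Those most unlike it were PTPRE, a receptor tyrosine phosphatase (r = -0.97 and -0.93 over 8 hens), then SH3YL1, INPP5B, RB1CC1, POLR3A, PXDC1, THRA, ATF1, MYCT1 and SOS2. These were picked for their r out of 12857 genes, and the values are a description.

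Other genes of the clock were followed from a list of 31, of which 28 were found in the table and 25 were tested. None was called after adjustment in any comparison by edgeR or limma. With ARNTL as the reference, 7 of 25 were lower and 0 higher at an unadjusted limma p-value under 0.05. Among all genes 2085 were lower and 1857 higher, 30.7% in either direction. That share rested on the scaling, and the 7 were counted with TMM scaling alone. Over 8 hens 1 of the 25 was lower (WEE1) and 1 higher (PPARGC1A). Among the 7 were TEF, a PAR-bZIP output factor, FBXL21 and BTRC, subunits of the ubiquitin ligases that destroy CRY and PER proteins, NOCT, a rhythmic phosphatase, and PPARGC1A and PRKAA1, which couple energy state to the clock. NOCT had the steepest slope, at -4.95, with 34.0 CPM in Translucent-1 and 42.9 CPM in Opaque-5 beside 122 to 294 CPM in the others. Of the 25, 10 lay below and 1 above all other hens in both of these libraries, against 20% and 20.6% of all genes.

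Between shell classes, 1 of the 25 was higher and 1 lower in translucent hens at an unadjusted p-value under 0.05, beside 2.19% of all genes. WEE1, a mitotic kinase whose gene the clock drives in mouse liver, was at 9.50 to 20.4 CPM in the translucent and at 5.74 to 11.6 CPM in the opaque hens (log2 fold change 0.84, edgeR unadjusted p = 0.00934, adjusted p = 0.9999). Only Opaque-2 reached into the translucent range of WEE1, and without Translucent-1 and Opaque-5 the log2 fold change was 0.81 (edgeR unadjusted p = 0.0164, adjusted p = 0.9998). TIMELESS, a replication fork protein related to a fly clock gene, was at 0.594 to 1.22 CPM in the translucent and at 0.997 to 2.87 CPM in the opaque hens (log2 fold change -0.91, edgeR unadjusted p = 0.0236, adjusted p = 0.9999). TIMELESS was low throughout, the classes overlapped with Opaque-5 the highest hen, and without Translucent-1 and Opaque-5 the log2 fold change was -0.78 and no longer met the criterion (edgeR unadjusted p = 0.0649, adjusted p = 0.9998).

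On the egg-laying interval, 1 of the 25 met the unadjusted criterion, beside 2.56% of all genes. ARNTL2, the paralogue of ARNTL, had a slope of -0.30 log2 units per hour (edgeR unadjusted p = 0.0270, adjusted p = 0.965) and of -0.30 without Translucent-1 and Opaque-5 (unadjusted p = 0.0413). ARNTL2 was at 17.8 to 28.6 CPM in the translucent and at 26.4 to 35.7 CPM in the opaque hens, and the 2 lowest hens were Translucent-2 and Translucent-1. NR1D1, the close relative of NR1D2, did not pass the filter. It was highest in Translucent-4 at 1.67 CPM, as NR1D2 was, and at 0.213 to 0.968 CPM in the other 9 hens. CIART was likewise not tested, being at or near 0 in all hens.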

How the data were processed

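White isthmus RNA of 10 hens was sequenced with 1 library per hen. Per the labels and the paper's methods, the authors cleaned reads (fastp), discarded rRNA (Bowtie2), aligned the remainder (HISAT2), assembled transcripts (StringTie) and estimated gene abundance (RSEM). The genome build is not given in the sources used here. The deposited values are expected counts from RSEM, not normalized, and FPKM, in which the authors allowed for length and mapped fragments. The expected counts, 6.73% of them fractional, were rounded.

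Groups and replicates came from the labels. Counts were scaled by TMM and filtered by filterByExpr in edgeR 4.0.16 (R 4.3.3). Shell class was tested by edgeR's quasi-likelihood test on the 10 hens, the egg-laying interval (from the study's sample table) with shell class in the same model, and covariation with ARNTL by limma 3.58.1 on log2 CPM with a prior count of 2. Benjamini-Hochberg adjustment was made over all tested genes, with calls at 0.05 (for shell class with a log2 change above 1). Correlations of 36 pairs and 9 interval relations were tested with 100000 permutations (10 hens), with all 14400 within-class pairings (class-centred values) or exactly with 40320 pairings (8 hens). P-values measure the spread between hens. The model fits were run on simulated counts with planted changes. In these ARNTL carried no counting noise, and the permutation tests of correlations were not covered.

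The named genes are the 9 members, the listed other clock genes and the 10 genes most like and unlike ARNTL, and some of these genes are named in no result here. The members and lists were chosen with earlier results of these data known. Alternatives were DESeq2 1.42.0 without the low-count filter, size factors, library size alone, other filters, FPKM with pseudocounts of 1 and 0.1, Spearman's rho, class-centred values, hens left out, a replicate block, and the covariate added or left out. NPAS2 or CLOCK as the reference gene, and DESeq2 with the low-count filter, were added after seeing the data. A promoter motif search was not run, and no coordinates are given. Figures were drawn with matplotlib 3.10.9.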

Additional observations from a re-analysis of the deposited data

Results flagged for a closer look

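In each shell class the highest or lowest of 5 hens was set against its nearest neighbour for the members and the other tested clock genes, 68 groups in all, and 2 hens lay farther off than Dixon's 95% limit. Chance gives about 1 in 20 groups. NPAS2 in Opaque-5 was at 5.07 log2 CPM, and its gap to the nearest opaque hen was 0.976 of the range of the class. BTRC, a subunit of the ubiquitin ligase that acts on PER proteins, was at 3.67 log2 CPM in Translucent-1, which is 12.6 CPM beside 22.8 to 25.9 CPM in the other translucent hens. Opaque-5 had 13.3 CPM of BTRC and the other opaque hens 18.1 to 28.6 CPM.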

How the results depend on the processing

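Genes called for shell class and for the interval went from 0 to 4 each with DESeq2 without the low-count filter, and to 2 and 5 with it, an alternative chosen after seeing the data, while edgeR without the filter called 0. With ARNTL as the reference the count went from 0 to 2066 (DESeq2 without the filter), 1983 (with it) and 7 with shell class left out, and it was 2821 with NPAS2 and 5463 with CLOCK as the reference gene, both chosen after seeing the data. Leaving out 1 hen at a time gave 0 for shell class and interval, 0 to 450 for ARNTL and 6 to 7 negative pairs among the 12 of opposite phase, which were 6 in the report and 6 to 8 under the other settings. The replicate numbers join different animals, whose deviations correlated at -0.13 on average (5 same-numbered pairs) and 0.04 (20 others), and the replicate block gave 0 calls in all 3 comparisons. Without Translucent-1 and Opaque-5 the direction turned for the interval slopes of CLOCK (0.18), NR1D2 (0.10) and RORA (0.30), for the ARNTL slope of CLOCK (1.19), and for r of ARNTL and CLOCK (0.28), CLOCK and NPAS2 (0.36) and NPAS2 and RORA (0.35). The interval slope of PER3 was -0.0543 with library size alone, -0.0431 on log2(FPKM + 1) and -0.0688 on log2(FPKM + 0.1), that of NR1D2 was 0.0047 without shell class, and the fold change of ARNTL was -0.0306 with the interval as a covariate. With 1 hen left out, fold changes ran from -0.0613 to 0.12 for ARNTL, -0.10 to 0.36 for CLOCK, -0.97 to 0.34 for NPAS2, -0.29 to 0.0758 for PER2 and -0.0017 to 0.74 for RORA, interval slopes from -0.49 to 0.0131 for CLOCK, -0.20 to 0.0616 for NR1D2, -0.0193 to 0.12 for PER3 and -0.59 to 0.12 for RORA, and the ARNTL slope of PER2 from -1.04 to 1.29. The cause was not tested. With 5 hens a class, the standard errors of the fold changes between classes were 0.14 to 0.55 on the log2 scale, which limits what could be detected.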
